A study of Arabidopsis thaliana with 14 samples.

Results

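The COP9 signalosome is a protein complex of plant and animal cells that removes the ubiquitin-like protein RUB (NEDD8) from cullins, the scaffolds of a large class of ubiquitin ligases. Cycles of RUB attachment and removal keep these ligases working, and in plants they act in light, auxin, jasmonate and gibberellin signalling and in the cell cycle. Mutants of Arabidopsis that lack the complex develop in the dark as if in light, accumulate anthocyanins and stop growing as seedlings. CSN8 is 1 of the subunits. The effect described here is the difference between CSN8 mutant and Wassilewskija wild-type seedlings, taken over arrays with and without the label DTT.

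The members are the 8 arrays whose labels carry a batch number, of 14 arrays in the series. They comprise 4 CSN8 mutant arrays (2 labelled CSN8 and 2 labelled CSN8 + DTT) and 4 Wassilewskija arrays (2 labelled Wassilewskija and 2 labelled Wassilewskija + DTT). Each of these 4 groups has 1 array in batch 1 and 1 in batch 2, so genotype is balanced over both labels. The effect was the genotype term of a model with the DTT label and the batch as covariates, fitted with limma to the log2 level of each probe set of the Affymetrix ATH1 array. All 8 arrays came from whole seedlings, 12 days old, grown on agar plates with MS salts under long days of white light. The other 6 arrays, 3 of the csn5a-1 mutant and 3 of Columbia wild type, came from seedlings of the same age without the DTT label and served only for a comparison of the mutants.

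The labels limit what these groups can stand for. DTT usually stands for dithiothreitol, which reduces disulfide bonds and so stresses the endoplasmic reticulum, but neither dose nor duration is given, and the treatment text shared by all samples speaks of no treatment. The allele of the CSN8 mutant and the accession it was made in are not stated, so mutation and accession cannot be told apart if they differ. The number of seedlings behind an array is not stated either. No probe set was assigned to the CSN8 gene (AT4G14110) alone, so the genotype label was not checked on the mutated gene.

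Genotype was the main axis of variation over the 8 arrays. The first principal component held 48.2% of the variance and placed the CSN8 arrays at 26.6 to 61.2 and the Wassilewskija arrays at -51.2 to -29.5. Of 22746 probe sets, 5287 (23.2%) passed an adjusted p of 0.05 in limma. Of these, 2716 (11.9%) were higher in CSN8 and 2571 (11.3%) were lower. At least 2-fold changes past the threshold numbered 682 higher and 936 lower (7.11% together), and at least 8-fold changes 29 higher and 47 lower. The median change of all probe sets was 0.03 log2 units, and the median halfwidth of the 95% interval was 0.29. The ranges of the 4 CSN8 and 4 Wassilewskija arrays did not overlap for 20.4% of probe sets (CSN8 above in 11.5% and below in 8.89%), and all 4 pairs of matched batch and DTT label changed one way for 40.4%. Across probe sets, the differences within these 4 pairs had pairwise r of 0.56 to 0.78. Among the 13513 probe sets with exactly 1 gene, 11.2% were higher and 9.31% lower, and these shares are the background for the gene lists below. The share past the threshold was 2.58% among probe sets below the lower quartile of mean levels and 34.9% above the upper quartile, so absence of a call says little for weakly measured genes.

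**Figure D1:**
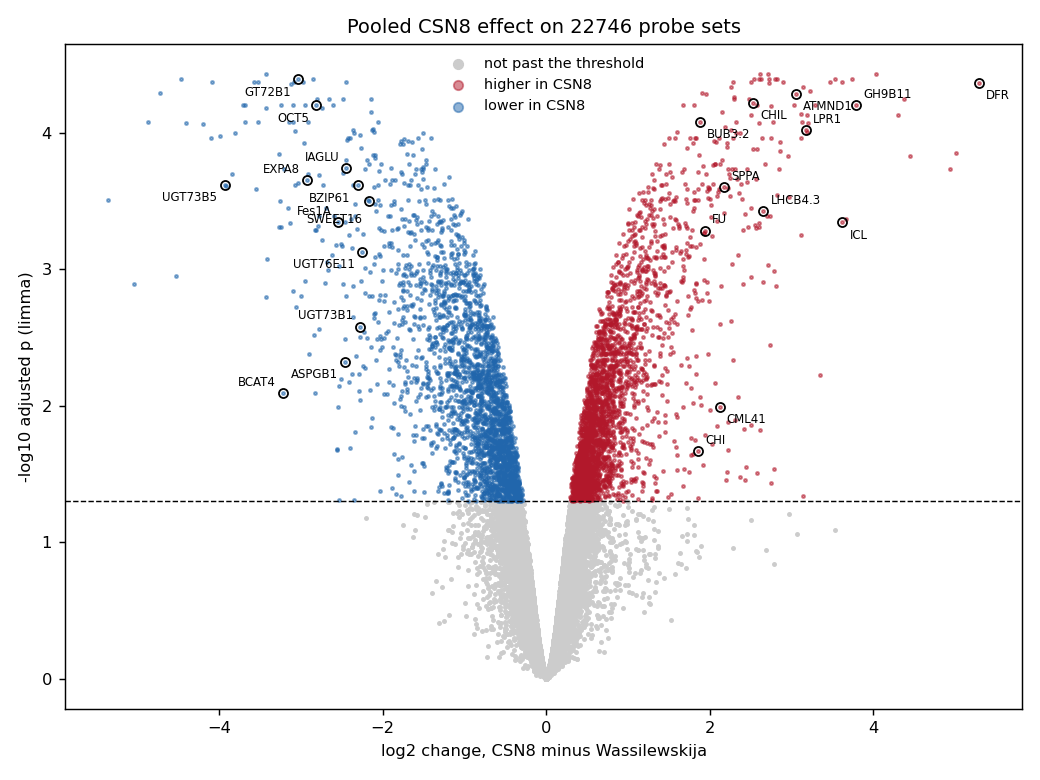
Size and significance of the pooled CSN8 effect. Each point is 1 of 22746 probe sets, the x axis is the log2 change (CSN8 minus Wassilewskija) and the y axis is -log10 of the adjusted p from limma, with the threshold of 0.05 dashed. The circled points are the 12 largest increases and 12 largest decreases among genes with a symbol, from DFR at 5.29 to UGT73B5 at -3.93.

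Values below are log2 levels, given in the order batch 1 without and with the DTT label, then batch 2 without and with it. A change is the CSN8 minus Wassilewskija difference in log2 units with its standard error from the 8 arrays. Whole seedlings were measured, so more cells of a type and more transcript per cell cannot be told apart.

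Flavonoid and anthocyanin genes were higher in CSN8, and DFR had the largest increase of all genes with a symbol. DFR (AT5G42800), which encodes dihydroflavonol 4-reductase at the entry to anthocyanin synthesis, had levels of 9.59, 9.43, 8.54 and 8.57 in CSN8, against 3.62, 3.62, 3.98 and 3.74 in Wassilewskija. The genotypes were far apart on every array, in both batches and with either DTT label. DFR was 39.1-fold higher in CSN8 (change 5.29 ± 0.24, adjusted p = 4.32e-05). CHIL (AT5G05270), a chalcone isomerase-like protein that promotes flavonoid synthesis, had levels of 9.79, 9.72, 9.55 and 9.50 in CSN8, against 7.20, 6.85, 7.41 and 6.98 in Wassilewskija (change 2.53 ± 0.13, adjusted p = 6.06e-05). In wild type DFR lay near the lower end of the array's range and CHIL well above it, and in the mutant both were high.

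Genes that decorate flavonoids rose as well. AT4G14090, a locus on the flavonoid list to which the annotation used here gives no name, had levels of 6.26, 7.00, 6.39 and 6.21 in CSN8, against 3.69, 3.80, 3.71 and 3.23 in Wassilewskija (change 2.85 ± 0.19, adjusted p = 0.000136). It lies close to the CSN8 gene on the chromosome. Of the 50 nearest measured loci around AT4G14110, 14 passed the threshold (28%), against the 20.5% of single-gene probe sets. UF3GT, a sugar transferase of anthocyanin glycosides, rose by 1.81 ± 0.15. UGT78D2, a flavonoid 3-O-glucosyltransferase, had levels of 8.78, 9.83, 9.69 and 9.97 in CSN8, against 7.97, 7.95, 7.96 and 7.99 in Wassilewskija (change 1.60 ± 0.20, adjusted p = 0.00171). The wild-type arrays were nearly identical and the lowest mutant array was the one of batch 1 without DTT. AT5MAT, an anthocyanin malonyltransferase, rose by 1.01 ± 0.17 and UGT78D3, a flavonol arabinosyltransferase, by 0.36 ± 0.09.

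In all, 7 of 9 measured probe sets of the list rose and none fell, with a median change of 1.60, against 11.2% higher among all single-gene probe sets and an overall median of 0.03. The list was drawn up with earlier results of these arrays known, so an excess over these shares may be built into its choice. It held 30 loci, so most were not measured by a single-gene probe set. UGT78D1, a flavonol rhamnosyltransferase (0.64 ± 0.25, adjusted p = 0.11), and BAN, the anthocyanidin reductase of the seed coat (0.04 ± 0.13, adjusted p = 0.89), did not pass. Leaving out 1 array at a time kept 6 of the 7 calls in all 8 fits. The exception was UGT78D3, whose level lay below the lower quartile of the table and whose adjusted p reached 0.0904. HYH (AT3G17609), a light-signalling transcription factor related to HY5 and a target of COP1-dependent degradation, was the only measured locus of the 22 on the light list. It had levels of 8.66, 8.85, 8.94 and 8.64 in CSN8, against 8.13, 7.73, 7.70 and 8.17 in Wassilewskija (change 0.84 ± 0.16, adjusted p = 0.0085).

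**Figure D2:**
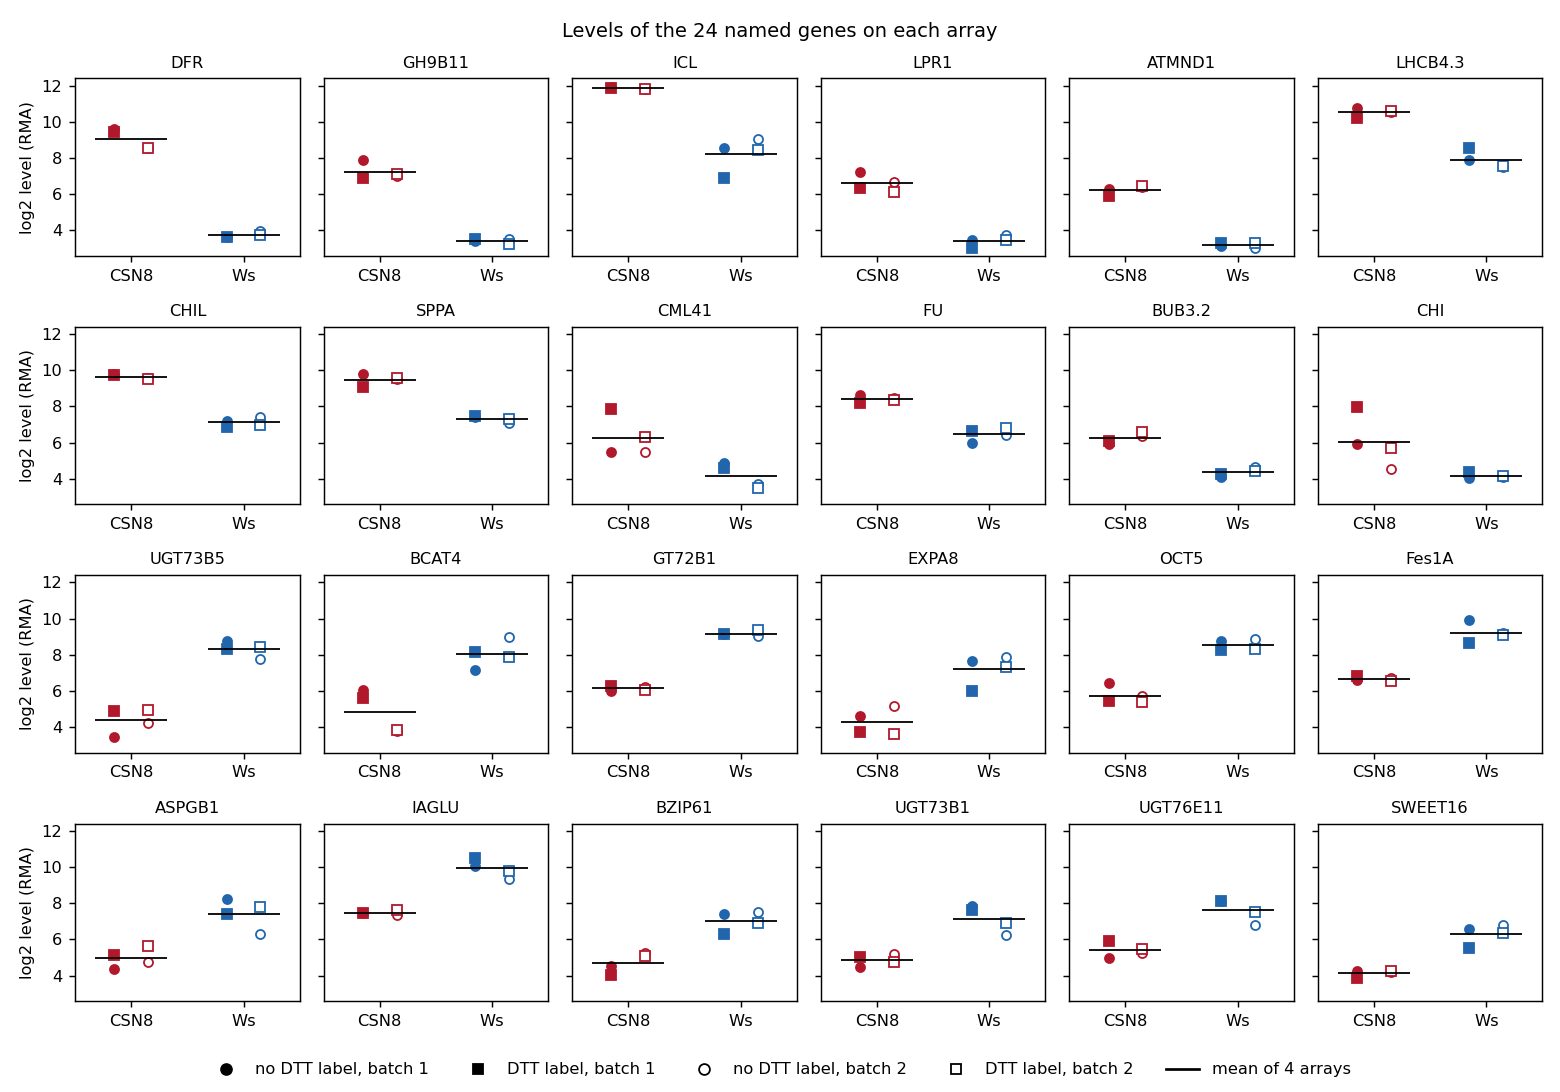
Levels of 24 genes on each of the 8 arrays, in log2 units, with CSN8 arrays left of Wassilewskija (Ws) arrays. Squares carry the DTT label, open symbols are batch 2 and lines are means of 4 arrays. The genotypes do not overlap for any of these genes because the choice of genes required it, while the spread within a genotype ranges from narrow (CHIL, GT72B1) to wide (CML41, CHI, BCAT4).

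UDP-glucosyltransferases (UGTs), enzymes that attach glucose to hormones, defence compounds and foreign molecules, moved the other way. UGT73B5 (AT2G15480), known to respond to pathogens and oxidative stress, had levels of 3.46, 4.88, 4.21 and 4.96 in CSN8, against 8.74, 8.32, 7.74 and 8.43 in Wassilewskija. No mutant array came near the wild-type range. The gene was 15.3-fold lower (change -3.93 ± 0.30, adjusted p = 0.00024). GT72B1 (UGT72B1, AT4G01070), which conjugates chlorinated pollutants and lignin precursors, had levels of 6.01, 6.27, 6.24 and 6.05 in CSN8, against 9.15, 9.15, 9.03 and 9.37 in Wassilewskija. Arrays of a genotype differed little, and the change was -3.03 ± 0.11 (adjusted p = 4.06e-05).

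IAGLU (AT4G15550), which forms the glucose ester of the auxin indole-3-acetic acid, had levels of 7.44, 7.48, 7.35 and 7.65 in CSN8, against 10.08, 10.47, 9.35 and 9.79 in Wassilewskija (change -2.44 ± 0.17). UGT76E11 fell by 2.25 ± 0.23 and its close relative UGT76E12 by 1.80 ± 0.25 on the log2 scale. UGT73B4, next to UGT73B5 on the chromosome, changed by -1.24 ± 0.17, and UGT76B1, which glucosylates isoleucic and salicylic acid, by -1.11 ± 0.22. UGT74B1, an enzyme of glucosinolate synthesis, changed by -0.99 ± 0.26. Probes for close relatives, such as UGT76E11 and UGT76E12 or UGT73B4 and UGT73B5, can bind each other's transcripts, so the separate changes within such a pair are uncertain.

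All 8 measured probe sets of the list of 12 loci were lower, with a median of -2.03, against 9.31% of single-gene probe sets. UGT74B1 lost its call when 1 of 6 different arrays was left out (adjusted p up to 0.105), and the other 7 kept theirs in all 8 fits. The list had been drawn up with earlier results of these arrays known, so a wider count is needed. Over all 50 probe sets with a UGT symbol, chosen after the values were seen, 15 fell and 6 rose, with a median of -0.13. The fall was therefore not general to the family. Those that rose included the flavonoid enzymes above and UGT84A1, which forms sinapate and hydroxycinnamate glucose esters (1.42 ± 0.11). UGT73B1 (-2.27 ± 0.31), UGT73C1 (-1.79 ± 0.28) and UGT71C5 (-1.15 ± 0.12) were among the further ones that fell.

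Among genes of the cell wall, GH9B11 was higher and 6 of 12 expansin probe sets were lower. GH9B11 (AT2G44560), a member of the glycosyl hydrolase family that includes cellulases, had levels of 7.91, 6.91, 6.99 and 7.09 in CSN8, against 3.42, 3.55, 3.50 and 3.26 in Wassilewskija (change 3.79 ± 0.19, adjusted p = 6.3e-05). Expansins loosen walls during growth. Of these, EXPA8 had levels of 4.63, 3.73, 5.15 and 3.63 in CSN8, against 7.64, 5.99, 7.86 and 7.35 in Wassilewskija. It was lower with the DTT label in both genotypes, and its choice required that the genotypes not overlap (change -2.92 ± 0.22, adjusted p = 0.000223). EXPA16 changed by -1.54 ± 0.18 and EXPA15 by -1.50 ± 0.26.

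Of 12 expansin probe sets, 6 fell and none rose (median -0.72), against 9.31% lower and 11.2% higher among single-gene probe sets. The calls of EXPA8, EXPA16, EXPA15 and EXPA18 (-0.67 ± 0.14) stood in all 8 fits without 1 array. EXPB3 (-1.31 ± 0.36) lost its call in 5 of them and EXPA7 (-0.77 ± 0.23) in 7, with adjusted p up to 0.126 and 0.144. EXPA7 and EXPA18, both known from root hair cells, were also the only measured loci of the 10 root markers. The median of these 2 markers was 4.06 to 5.75 in CSN8 and 4.47 to 6.29 in Wassilewskija, and without both CSN8 arrays of batch 1 neither passed (adjusted p = 0.143 and 0.052). A part of root tissue in the expansin result was not tested. The auxin-conjugating WES1 (GH3.5) had levels of 5.15, 4.32, 5.36 and 4.61 in CSN8, against 6.44, 5.80, 6.79 and 6.30 in Wassilewskija (change -1.47 ± 0.10, adjusted p = 0.000159). GH3.3, of the same function, had -0.95 ± 0.29 and lost its call in 6 of 8 fits without 1 array (adjusted p up to 0.15). The other 5 of 7 auxin genes, among them IAA29 and LBD29, did not pass, and the list median was 0.00.

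**Figure D3:**
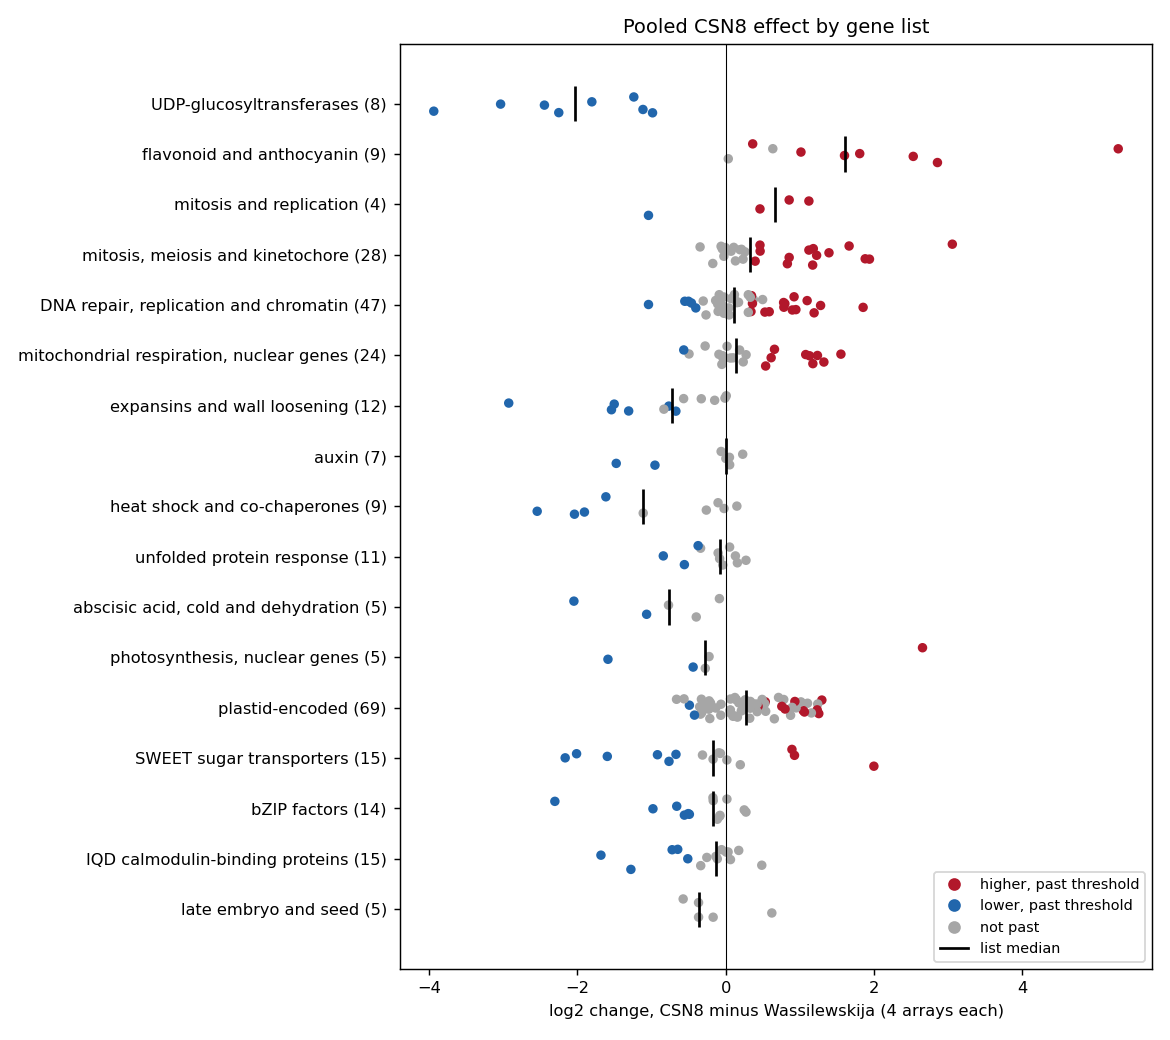
Pooled CSN8 effect on the probe sets of 17 gene lists (number of probe sets in brackets). The x axis is the log2 change, each point is a probe set coloured by whether it passed the threshold, and black lines are list medians, from 1.60 for flavonoid genes to -2.03 for the listed UGTs. Lists were drawn up with results of these arrays known.

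A number of transcripts of the machinery of chromosome segregation were higher in the mutant. ATMND1 (MND1, AT4G29170), a partner of HOP2 in strand exchange during meiotic recombination, had levels of 6.29, 5.88, 6.41 and 6.44 in CSN8, against 3.15, 3.31, 3.04 and 3.30 in Wassilewskija. It was at the lower end of the array's range in every wild-type seedling sample and 8.31-fold higher in CSN8 (change 3.05 ± 0.15, adjusted p = 5.17e-05). BUB3.2, related to the spindle checkpoint protein BUB3, had levels of 5.93, 6.08, 6.38 and 6.61 in CSN8, against 4.09, 4.26, 4.66 and 4.46 in Wassilewskija (change 1.88 ± 0.11). HTR12, the centromeric histone CENH3, had levels of 6.18, 6.91, 6.57 and 6.67 in CSN8, against 4.59, 5.06, 4.85 and 5.17 in Wassilewskija (change 1.66 ± 0.12, adjusted p = 0.000193). The changes in batch 1 and batch 2 were 2.85 and 3.25 for ATMND1, 1.83 and 1.93 for BUB3.2, and 1.72 and 1.61 for HTR12.

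All 3 Aurora kinases, which drive spindle and cytokinesis steps, rose: AUR3 by 1.12 ± 0.14, AUR1 by 0.86 ± 0.12 and AUR2 by 0.46 ± 0.11. AUR2 missed the threshold without Wassilewskija or Wassilewskija + DTT of batch 1 or CSN8 + DTT of batch 2 (adjusted p up to 0.0664). WYR, an INCENP-like partner of these kinases, changed by 1.39 ± 0.18, the F-box protein FBL17, which promotes S phase, by 1.23 ± 0.13, the condensin subunit ATSMC2 by 1.18 ± 0.12 and the anaphase-promoting complex subunit CDC27a by 1.17 ± 0.10. FU, a kinase of phragmoplast expansion, rose by 1.94 ± 0.18 on 1 probe set and had -0.0042 ± 0.11 on its other. That other probe set had means of 3.10 in CSN8 and 3.11 in Wassilewskija, below the lower quartile of the table (3.31). It therefore says little, and the change of FU rests on 1 probe set.

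In a list of 28 probe sets for mitosis, meiosis and the kinetochore, chosen after the values were seen, 14 rose and none fell (median 0.33). The background shares were 11.2% higher and 9.31% lower, and 11 of the calls stood in all 8 fits without 1 array. The replication licensing factor PRL (MCM7) went the other way (-1.04 ± 0.23, adjusted p = 0.016). Its call was lost without any 1 of the 4 arrays with DTT, with adjusted p up to 0.058. A second list of this kind, of 47 probe sets for DNA repair, replication and chromatin, had 15 higher and 5 lower (median 0.12), against the same background shares. Only 9 of the increases and 1 of the decreases stood in all 8 fits, and without Wassilewskija + DTT of batch 1 the number higher was 9. FANCM, a helicase that limits meiotic crossovers, had levels of 4.84, 4.93, 5.21 and 5.57 in CSN8, against 3.44, 3.02, 3.29 and 3.40 in Wassilewskija (change 1.85 ± 0.15, adjusted p = 0.000308). The chromatin remodeller CHR24 rose by 1.28 ± 0.11, histone HTB2 by 1.19 ± 0.14, the nuclease partner EME1A by 0.92 ± 0.12 and topoisomerase TOPII by 0.90 ± 0.14.

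Genes of respiration and of stored carbon use changed in a mixed way. ICL (AT3G21720), isocitrate lyase of the glyoxylate cycle that turns lipid carbon into sugar in young seedlings, had levels of 11.95, 11.86, 11.83 and 11.81 in CSN8, against 8.56, 6.91, 9.05 and 8.45 in Wassilewskija. The mutant arrays were almost equal while the wild type varied, and ICL was 12.3-fold higher (change 3.62 ± 0.33, adjusted p = 0.000452). ASPGB1, an asparaginase that releases nitrogen from asparagine, had levels of 4.36, 5.16, 4.73 and 5.63 in CSN8, against 8.22, 7.43, 6.29 and 7.79 in Wassilewskija (change -2.46 ± 0.39, adjusted p = 0.00478). The oil body lipase SDP1, which opens the same route as ICL, changed by -0.64 ± 0.12, and PPDK did not pass. The list thus held 1 higher and 2 lower of 4.

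Succinate dehydrogenase, the enzyme shared by the citric acid cycle and the respiratory chain, was higher on 3 of its 5 probe sets. SDH1-2 had levels of 5.07, 4.25, 5.81 and 5.58 in CSN8, against 3.61, 3.57, 3.58 and 3.73 in Wassilewskija (change 1.55 ± 0.24, adjusted p = 0.00402). SDH1-1 rose by 1.18 ± 0.11. SDH2-1 rose by 1.13 ± 0.10 on 1 probe set and had -0.03 ± 0.11 on another that lay near the lower end of the range. SDH2-2, the other isoform of that subunit, had 0.19 ± 0.09 and did not pass (adjusted p = 0.184). Cytochrome c gene CYTC-2 had levels of 10.68, 11.12, 10.34 and 10.64 in CSN8, against 9.26, 9.60, 9.08 and 9.56 in Wassilewskija (change 1.32 ± 0.10, adjusted p = 0.000256).

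In a list of 24 probe sets for nuclear genes of respiration, chosen after the values were seen, 9 rose and 1 fell (median 0.14). The background shares were 11.2% higher and 9.31% lower, and 7 of the 9 increases stood in all 8 fits. Of those 9, ICDH (1.24 ± 0.13) is an isocitrate dehydrogenase known from peroxisomes and NDC1 (1.08 ± 0.21) is also known from plastids. The 1 that fell was NDB2, an alternative NADH dehydrogenase (-0.56 ± 0.13), which lost its call without Wassilewskija + DTT or CSN8 + DTT of batch 1 or CSN8 of batch 2 (adjusted p up to 0.0619). AT2G21640, a locus of the redox and mitochondrial stress list that the annotation does not name, had levels of 7.89, 8.46, 7.96 and 8.42 in CSN8, against 6.21, 6.08, 5.53 and 5.47 in Wassilewskija (change 2.36 ± 0.19, adjusted p = 0.000275). Glutathione reductase GR1 rose by 0.61 ± 0.08.

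Sugar and metabolite carriers changed strongly in single members. SWEET16, a sugar carrier of the vacuole membrane, had levels of 4.24, 3.89, 4.19 and 4.24 in CSN8, against 6.55, 5.53, 6.80 and 6.33 in Wassilewskija (change -2.16 ± 0.18, adjusted p = 0.000318). SWEET2, also of the vacuole, had levels of 5.68, 6.63, 7.81 and 7.84 in CSN8, against 8.92, 8.70, 9.17 and 9.20 in Wassilewskija (change -2.01 ± 0.30). SWEET13, which exports sucrose from cells, was higher, with 7.39, 6.45, 4.85 and 4.10 in CSN8, against 4.26, 3.50, 3.87 and 3.16 in Wassilewskija. Its genotypes overlapped, and its change of 2.00 ± 0.39 was made of 3.04 in batch 1 and 0.96 in batch 2 (genotype by batch, adjusted p = 0.0161). Over 15 probe sets of the family, taken after the values were seen, 6 fell and 3 rose. Among single-gene probe sets, 9.31% were lower and 11.2% higher. In all 8 fits without 1 array, 4 of the 6 SWEET decreases and 2 of the 3 increases stood. OCT5, an organic cation and carnitine transporter, had levels of 6.42, 5.45, 5.70 and 5.41 in CSN8, against 8.78, 8.27, 8.86 and 8.32 in Wassilewskija (change -2.81 ± 0.15, adjusted p = 6.3e-05).

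Some chaperone and cold-response transcripts were lower, at 4 of 9 probe sets of the heat shock list and 2 of 5 of the abscisic acid, cold and dehydration list. Among single-gene probe sets, 9.31% were lower and 11.2% higher. Fes1A, an exchange factor and protector of cytosolic HSP70, had levels of 6.61, 6.83, 6.71 and 6.56 in CSN8, against 9.93, 8.64, 9.19 and 9.11 in Wassilewskija (change -2.54 ± 0.23, adjusted p = 0.00045). The co-chaperone Hop3, which links HSP70 and HSP90, had levels of 3.33, 3.99, 3.83 and 3.59 in CSN8, against 6.55, 5.10, 5.73 and 5.51 in Wassilewskija (change -2.04 ± 0.29). Of 9 heat shock probe sets, 4 fell and none rose (median -1.11). AT5G51440 (-1.90 ± 0.40) kept its call in all 8 fits without 1 array, whereas AT5G48570 (-1.61 ± 0.46) lost it in 6, with adjusted p up to 0.133. HSA32 and ATHSP22.0 did not pass.

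COR15B, which protects chloroplast membranes in the cold, had levels of 6.46, 6.85, 6.14 and 6.71 in CSN8, against 8.76, 8.49, 8.39 and 8.71 in Wassilewskija (change -2.05 ± 0.15, adjusted p = 0.00019). The dehydrin COR47 changed by -1.07 ± 0.25 and lost its call without either CSN8 + DTT array or Wassilewskija + DTT of batch 1 (adjusted p up to 0.0645), while COR15A, of the same protective function as COR15B, had -0.40 ± 0.18 and did not pass. COR27 (-0.08 ± 0.36, adjusted p = 0.902) and AT4G33980 (-0.77 ± 0.41, adjusted p = 0.23), the other 2 measured, did not pass either. Genes of the unfolded protein response, which DTT is used to provoke, had a median change near 0. Of 11 probe sets, 3 fell and none rose (median -0.08), against 9.31% lower and 11.2% higher among single-gene probe sets. The 3 were DER2.1, of protein export from the endoplasmic reticulum (-0.84 ± 0.14), DER2.2 (-0.37 ± 0.10) and the transcription factor BZIP60 (-0.56 ± 0.13). Only the call of DER2.1 stood in all 8 fits without 1 array. Autophagy gene ATG8E had levels of 7.29, 7.36, 7.43 and 8.03 in CSN8, against 9.24, 9.10, 9.02 and 9.24 in Wassilewskija (change -1.62 ± 0.15, adjusted p = 0.000547). In the whole ATG8 family, 4 of 9 probe sets fell and 2 rose, against the same background shares. Only the calls of ATG8E and ATG8F (-0.59 ± 0.11) stood in all 8 fits.

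The genes for CP29, a minor antenna protein of photosystem II, moved apart. LHCB4.3 (AT2G40100) had levels of 10.74, 10.20, 10.53 and 10.61 in CSN8, against 7.90, 8.53, 7.50 and 7.54 in Wassilewskija (change 2.65 ± 0.23, adjusted p = 0.000376). LHCB4.2 had levels of 10.11, 9.28, 10.53 and 9.94 in CSN8, against 11.25, 10.90, 12.15 and 11.90 in Wassilewskija (change -1.59 ± 0.14, adjusted p = 0.000414). LHCB4.1 was slightly lower (-0.44 ± 0.10), a call lost without any 1 of the 4 arrays with DTT (adjusted p up to 0.0636). The chlorophyll synthesis gene PORB (-0.27 ± 0.19) and the Rubisco activase RCA (-0.22 ± 0.10) did not pass. SPPA, a light-induced protease of thylakoids, had levels of 9.77, 9.09, 9.50 and 9.56 in CSN8, against 7.41, 7.45, 7.06 and 7.32 in Wassilewskija (change 2.17 ± 0.17, adjusted p = 0.000251). Of 69 plastid-encoded probe sets, 10 were higher and 2 lower (median 0.28). The share past the threshold was 17.4%, against 20.5% of single-gene probe sets (11.2% higher and 9.31% lower). Only 1 of the plastid-encoded calls, that of clpP (0.93), stood in all 8 fits without 1 array, and the number higher was 2 without Wassilewskija of batch 2, 3 without Wassilewskija of batch 1 and 4 without CSN8 of batch 2.

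Other large changes fell on genes of varied function. LPR1 (AT1G23010), a ferroxidase that links low phosphate to root growth arrest, had levels of 7.25, 6.35, 6.67 and 6.12 in CSN8, against 3.44, 3.03, 3.75 and 3.47 in Wassilewskija (change 3.17 ± 0.19, adjusted p = 9.51e-05). BHLH101, a regulator of iron uptake genes, changed by -1.30 ± 0.13, and LPR2, the closest relative of LPR1, did not pass (-0.16 ± 0.17). BCAT4 (AT3G19710), which starts the methionine chain elongation for glucosinolates, had levels of 6.06, 5.60, 3.82 and 3.83 in CSN8, against 7.16, 8.15, 8.98 and 7.89 in Wassilewskija (change -3.22 ± 0.59, adjusted p = 0.00811). Its change was -1.83 in batch 1 and -4.62 in batch 2. BZIP61, a transcription factor, had levels of 4.54, 4.04, 5.26 and 5.07 in CSN8, against 7.41, 6.29, 7.52 and 6.89 in Wassilewskija (change -2.30 ± 0.18), and its relative BZIP34 changed by -0.50 ± 0.11.

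CML41, a calmodulin-like protein of plasmodesmata induced in immunity, had levels of 5.46, 7.84, 5.48 and 6.30 in CSN8, against 4.86, 4.57, 3.71 and 3.48 in Wassilewskija (change 2.12 ± 0.41, adjusted p = 0.0102). CHI (AT2G43570), here a chitinase and not chalcone isomerase, had levels of 5.92, 7.97, 4.52 and 5.69 in CSN8, against 4.03, 4.40, 4.09 and 4.15 in Wassilewskija (change 1.86 ± 0.44, adjusted p = 0.0215). Both were highest in CSN8 with DTT of batch 1. CHI lost its call without Wassilewskija of batch 1, Wassilewskija + DTT of batch 1 or Wassilewskija + DTT of batch 2, with adjusted p of 0.059, 0.063 and 0.066. The largest changes on loci without a symbol were those of AT5G62210 (4.44 ± 0.30), AT2G47780 (4.03 ± 0.13), AT5G60250 (3.61 ± 0.16), AT1G67180 (3.53 ± 0.14) and AT3G30460 (3.22 ± 0.15) among increases. Among decreases they were AT2G16005 (-5.04 ± 0.59), AT2G05540 (-4.40 ± 0.25), AT1G23130 (-4.08 ± 0.18), AT1G10585 (-3.92 ± 0.30) and AT5G40450 (-3.71 ± 0.19).

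Genes of the ubiquitin pathway changed in part. The signalosome subunit gene CSN5B (0.16 ± 0.13, adjusted p = 0.45) and the cullin gene CUL4 (0.27 ± 0.11, adjusted p = 0.12) were the only measured loci of their lists and did not pass. RPN12a of the proteasome had 0.31 ± 0.09 (adjusted p = 0.042), a call lost in each of the 8 fits without 1 array. Among conjugating enzymes, UBC29 had levels of 9.97, 9.43, 9.62 and 9.50 in CSN8, against 8.79, 8.67, 8.71 and 8.51 in Wassilewskija (change 0.96 ± 0.10, adjusted p = 0.001). UBP21, a ubiquitin-specific protease, rose by 1.55 ± 0.14, and the U-box ligase PUB23, a negative regulator of immunity and drought tolerance, changed by -1.06 ± 0.19. Taken after the values were seen, 4 of 12 conjugating enzymes rose, 3 of 12 ubiquitin-specific proteases rose and 1 fell, and 3 of 9 U-box ligases rose and 1 fell, where 11.2% of single-gene probe sets were higher and 9.31% lower. In all 8 fits without 1 array, 2, 1 and 1 of these increases stood, and of the decreases only that of PUB23.

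The remaining lists had few measured members. Of 4 gibberellin genes only the receptor GID1B rose (0.52 ± 0.13), and that call was lost in 5 of 8 fits without 1 array (adjusted p up to 0.0759). In the jasmonate and defence list the defensin PDF1.2 changed by -0.55 ± 0.11 and the EDS1 partner SAG101 by 1.22 ± 0.30, of 4 measured. SAG101 lost its call without either Wassilewskija + DTT array or CSN8 + DTT of batch 2, with adjusted p up to 0.0832. In the glucosinolate and sulfate list, of 4 measured, UGT74B1 fell (above) and APS4, an ATP sulfurylase, had 0.66 ± 0.19 and lost its call in 5 fits (adjusted p up to 0.113). The clock gene GI had 0.35 ± 0.11 and did not pass (adjusted p = 0.061). None of 5 late embryo and seed markers passed. Their median level varied between single arrays, at 3.36 to 6.87 in CSN8 and 3.13 to 7.07 in Wassilewskija. Neither of 2 flower markers passed, and their median stayed at 2.63 to 2.88 in CSN8 and 2.57 to 2.82 in Wassilewskija, below the lower quartile of the table (3.31).

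Pooling over the DTT label was examined with the interaction of genotype and DTT. No probe set passed in limma (0%). At an unadjusted p of 0.05 there were 1087 of 22746, and the smallest adjusted p was 0.264. With 2 arrays per group this bears little on moderate differences. For DFR the change was 5.26 without DTT and 5.32 with it, for ATMND1 3.26 and 2.85, and for UGT73B5 -4.41 and -3.46. The values lay further apart for CML41, at 1.19 without DTT and 3.05 with it, and for AT2G16005, at -6.44 and -3.64.

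The CSN8 effect also differed between the batches. At an unadjusted p of 0.05 in limma, the interaction of genotype and batch had 3140 of 22746 probe sets. Those past the adjusted threshold need therefore not be all that differed. That interaction passed for 40 probe sets (0.176%), of which 29 had a positive change that was larger in batch 1. The number was 0 without any 1 of the 4 arrays of batch 2, 3 without Wassilewskija and 4 without Wassilewskija + DTT of batch 1, 81 without CSN8 and 148 without CSN8 + DTT of batch 1. Of the 24 of these with a single gene, 10 were on a list of 48 loci of the low oxygen response, which was chosen after the values were seen and had 24 measured probe sets. The clearest was AT4G10270, with levels of 11.32, 10.05, 4.65 and 4.26 in CSN8, against 4.96, 4.38, 5.08 and 4.74 in Wassilewskija. The CSN8 arrays of batch 1 were high with and without the DTT label, and those of batch 2 lay within or below the wild-type range. AT3G29970 had levels of 9.68, 9.07, 3.59 and 3.57 in CSN8, against 3.10, 3.65, 3.33 and 3.57 in Wassilewskija, and AT4G33560 followed the same pattern. AT3G03270 was the one of the 10 that passed in the pooled effect (2.09 ± 0.44), with a change of 3.25 in batch 1 and 0.92 in batch 2, and without Wassilewskija + DTT of batch 1 its adjusted p was 0.0502.

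Over the low oxygen list, 14 of 24 probe sets were at least 2-fold higher in both pairs of batch 1 and 0 in both pairs of batch 2, where 5 were at least 2-fold lower. Among all probe sets the shares higher were 2.59% and 2.18%. The median change was 1.77 in batch 1 and -0.15 in batch 2. In the pooled effect 4 of the 24 rose and 2 fell (median 0.68), where 11.2% of single-gene probe sets were higher and 9.31% lower. Without both CSN8 arrays of batch 1 the counts were 2 and 5. The difference between 3' and 5' control probe sets, a sign of RNA integrity or labelling, moved with these arrays in part. For GAPDH it was 1.67 log2 units on the CSN8 array of batch 1 without DTT and 0.49 on that with DTT, against 0.25 to 0.28 on the CSN8 arrays of batch 2 and 0.47 to 0.62 on the Wassilewskija arrays. For actin it was 4.28 and 4.15 on the CSN8 arrays of batch 1, the 2 highest of the 8 arrays, against 3.22 and 3.67 on the CSN8 arrays of batch 2 and 3.61 to 3.90 on the Wassilewskija arrays. For a second pair of actin control probe sets it was 2.81 and 1.65 on the CSN8 arrays of batch 1, against 1.68 and 1.76 on those of batch 2 and 1.40 to 1.99 on the Wassilewskija arrays. Its part in the result was not tested. None of the 24 genes with a symbol in the plot of levels had an interaction with batch past the threshold, where 0.176% of all probe sets did. Their choice required 1 direction in all 4 pairs, so this does not show equal effects in the batches. The change was -1.83 in batch 1 and -4.62 in batch 2 for BCAT4, and 2.73 and 0.98 for CHI.

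**Figure D4:**
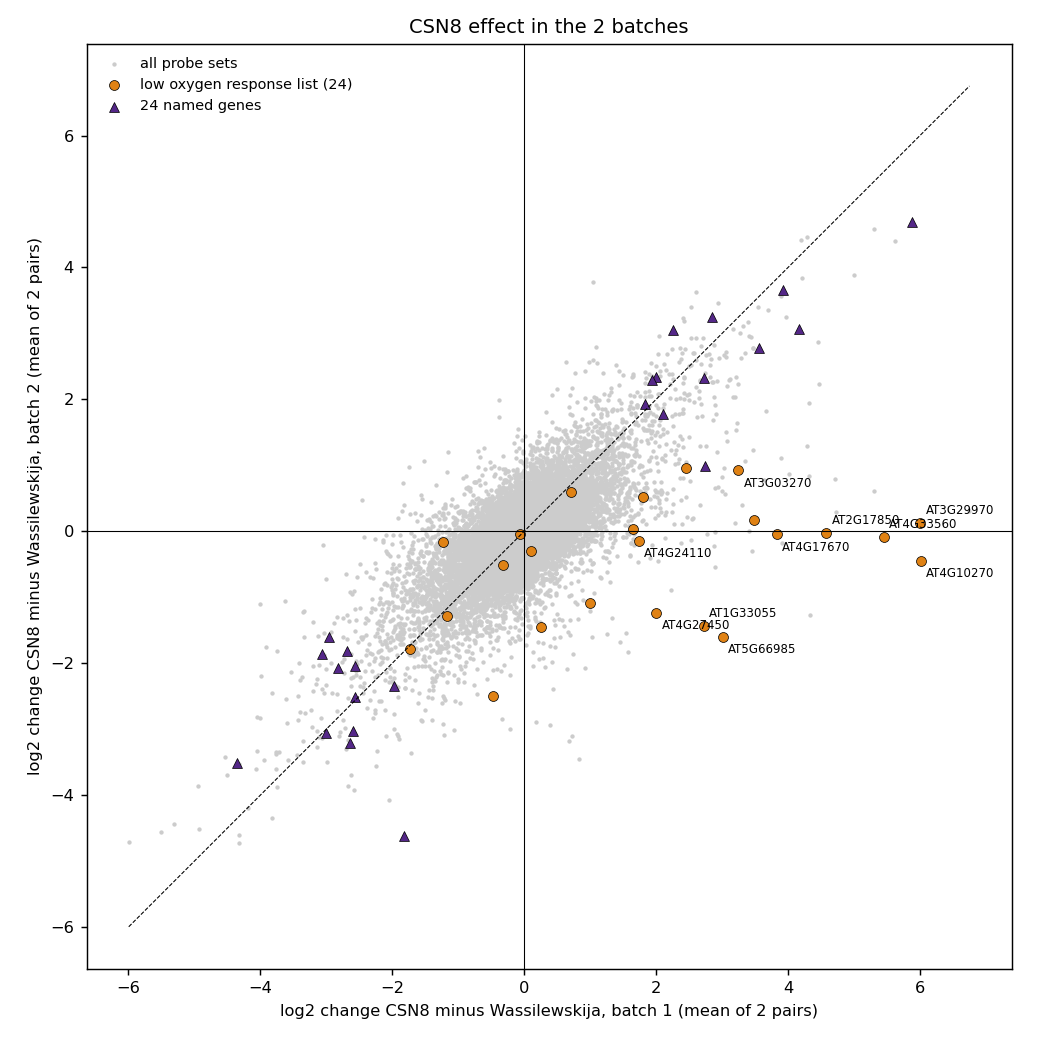
Change between CSN8 and Wassilewskija in batch 1 (x axis) and batch 2 (y axis), each the mean of the pairs with and without DTT, in log2 units. Grey points are all probe sets, triangles the 24 named genes and orange circles the 24 low oxygen probe sets. Most named genes, whose choice required 1 direction in all 4 pairs, lie near the dashed line of equality. Low oxygen loci such as AT4G10270 reach about 6 in batch 1 with no increase in batch 2.

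The csn5a-1 mutant, which affects the subunit that carries the catalytic site, gave a second signalosome mutant to set against its own wild type, Columbia. How far the complex is lost in either mutant was not measured here. Its 6 arrays were normalized apart from the 8 above, so changes within each set are compared and not levels. In csn5a-1, 7474 probe sets (32.9%) passed. Of the 24 genes with a symbol in the plot of levels, 19 had the same sign in csn5a-1, 10 of them past the threshold, and 3 passed with the opposite sign. A test of the difference between the mutant effects over all 14 arrays, chosen after the values were seen, passed for 19 of the 24 and for 27.8% of all probe sets. The CSN8 effect is pooled over the DTT label, which no csn5a-1 or Columbia array carries, and the wild types differ. Mutation, accession, DTT label and set of arrays cannot be told apart in this difference. Since these 24 were chosen for large changes in CSN8, a smaller change elsewhere is built into the choice.

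Flavonoid genes differed between the mutants. DFR had a change of 5.29 ± 0.24 in CSN8 and -0.58 ± 0.26 in csn5a-1, and CHIL 2.53 ± 0.13 in CSN8 and -2.59 ± 0.21 in csn5a-1. In csn5a-1 none of the 9 flavonoid probe sets rose and 3 fell, against 14.9% higher and 15.4% lower among single-gene probe sets. The difference between the mutants passed for 7 of the 9, with adjusted p of 1.35e-06 for DFR and 2.16e-07 for CHIL, and not for UGT78D1 or BAN. ICL also moved in opposite directions, by 3.62 ± 0.33 in CSN8 and -2.87 ± 0.30 in csn5a-1, and so did BZIP61 (-2.30 ± 0.18 in CSN8 and 1.17 ± 0.35 in csn5a-1). HYH had 0.84 in CSN8 and -1.12 in csn5a-1, with an adjusted p of 0.0024 for the difference.

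Other parts of the CSN8 effect had a like size in csn5a-1. ATMND1 changed by 3.05 ± 0.15 in CSN8 and 2.55 ± 0.14 in csn5a-1 (difference, adjusted p = 0.105), LHCB4.3 by 2.65 ± 0.23 in CSN8 and 2.07 ± 0.36 in csn5a-1, and EXPA8 by -2.92 ± 0.22 in CSN8 and -2.17 ± 0.50 in csn5a-1. AT2G21640 had 2.36 in CSN8 and 2.79 in csn5a-1, Hop3 -2.04 in CSN8 and -1.99 in csn5a-1, and AUR3 1.12 in CSN8 and 1.32 in csn5a-1. The mutants did not differ past the threshold for these genes, which does not show that they act alike. In the mitosis, meiosis and kinetochore list 11 of 28 rose and 2 fell in csn5a-1, yet AUR2 differed in sign (0.46 in CSN8, -1.59 in csn5a-1). Of the 8 listed UGTs, 4 fell in csn5a-1, GT72B1 by 1.42 ± 0.17 among them, and UGT73B5 did not pass (-0.27 ± 0.21). LPR1 (0.30 ± 0.23), GH9B11 (0.11 ± 0.10) and SPPA (0.14 ± 0.13) did not pass in csn5a-1, and the difference between the mutants passed for each. Of the 24 low oxygen probe sets, 11 rose and 1 fell in csn5a-1 (median 0.34), against 14.9% higher and 15.4% lower among single-gene probe sets.

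**Figure D5:**
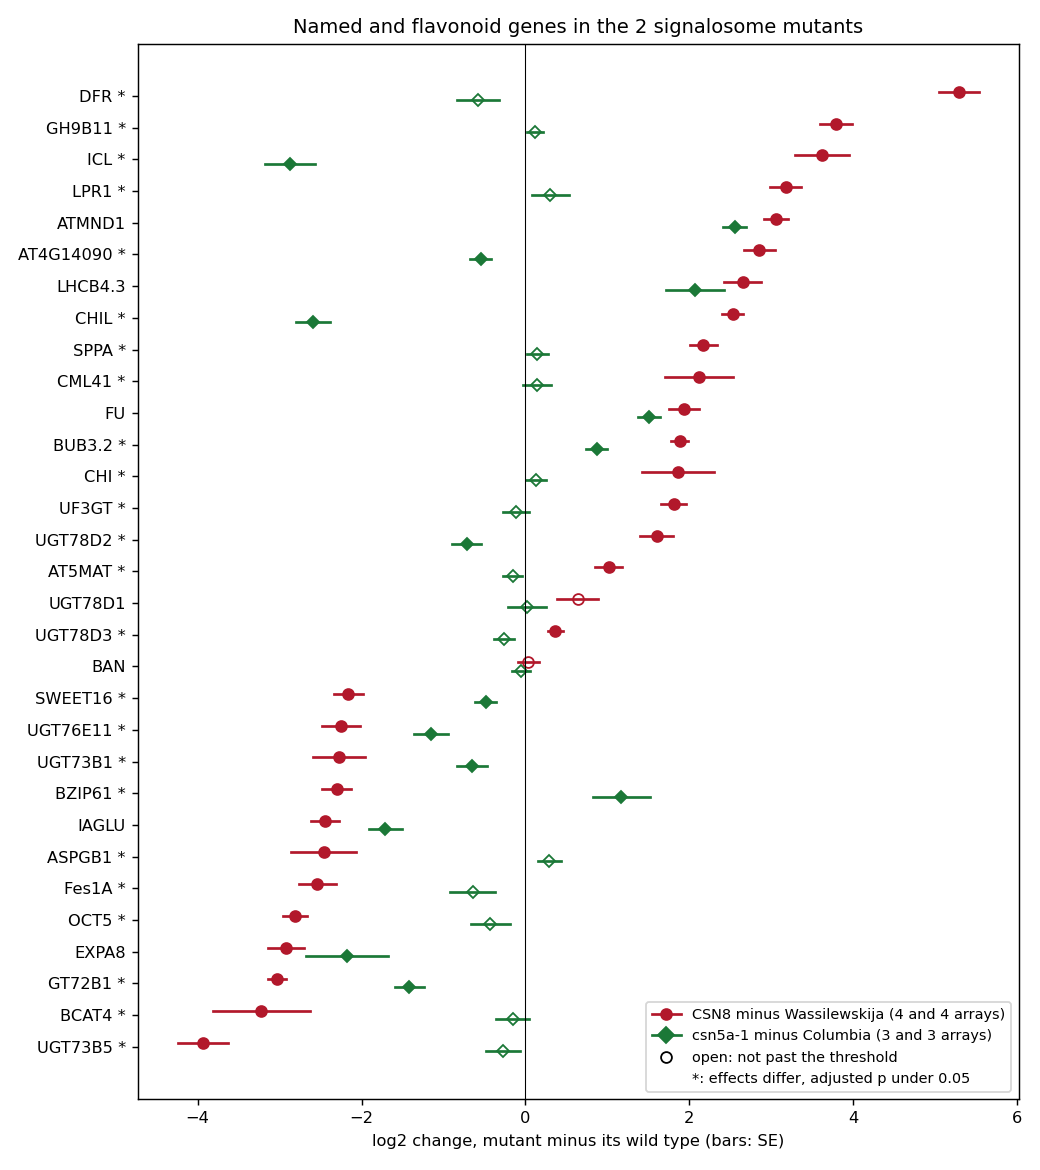
Log2 change with SE of the 24 named genes and the flavonoid list in CSN8 minus Wassilewskija (circles, 4 and 4 arrays) and csn5a-1 minus Columbia (diamonds, 3 and 3 arrays). Open symbols did not pass the threshold and stars mark genes whose effects differed. DFR, CHIL and ICL are far to the right in CSN8 and at or left of 0 in csn5a-1, while ATMND1, LHCB4.3 and EXPA8 lie close together.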

How the data were processed

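The deposited table holds log2 levels of probe sets, made by the authors by RMA, per the submitters' processing notes; its software is not given in the sources used here, and the files name no genome build, so no coordinates are printed. The 8 batch-labelled arrays and the 6 others were normalized separately. RMA's quantile step gives every array the same distribution, so changes are relative.

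The 64 control probe sets were left out. The platform annotation gave 1 gene for 13513 of the 22746 probe sets left, several for 503 and none for 8730. Names came from the reference gene table (TAIR10.1), which held 13436 of the 13513. limma 3.58.1 in R 4.3.3 fitted genotype, DTT label and batch additively. Tests were two-sided, with Benjamini-Hochberg adjustment over all 22746 and a threshold of 0.05. The fit was tested on simulated data. The number of arrays limits the precision. Labels do not say whether arrays came from separate cultures, so p-values measure the spread between these arrays.

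Batch is the batch number in the labels, which do not say what a batch was. Arrays of 1 batch deviated from their group means together (r of 0.07 to 0.57), so batch was kept as a block. Named genes are the 12 largest increases and 12 decreases with a symbol (5 and 5 with a locus only) that passed, did not overlap and agreed over 4 pairs; list members are named with their list. The members and lists were chosen with earlier results of these data known. Of 426 loci on 24 lists, 105 were measured. Alternatives covered normalization, covariates, weights, variance prior, low-level filter and arrays left out.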

Additional observations from a re-analysis of the deposited data

Results flagged for a closer look

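Of 254 sets of 4 arrays of a genotype tested for 1 array far from the others (Dixon's criterion, which flags about 1 in 20 by chance), 11 were flagged. In CSN8 these were SWEET16 at 3.89 on the DTT array of batch 1, against 4.19 to 4.24 on the others, AT3G30460 at 6.91 on the same array, against 7.76 to 7.79, AT1G67180 at 7.87 on the array of batch 1 without DTT, against 7.40 to 7.47, and GI at 7.91 there, against 7.72 to 7.73. In Wassilewskija of batch 1 without DTT they were LBD16 at 4.45 (others 3.94 to 4.03), BAN at 3.41 (others 3.06 to 3.12) and AT1G53540 at 8.11 (others 5.92 to 6.26). In Wassilewskija of batch 2 without DTT they were AT5G62210 at 5.04 (others 3.97 to 4.12) and EXPA15 at 7.62 (others 6.32 to 6.41). In Wassilewskija with DTT they were AT3G15670 at 3.57 in batch 1 (others 5.34 to 5.64) and LHCB4.1 at 13.04 in batch 2 (others 12.85 to 12.87).

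The CSN8 effect differed between the batches past the adjusted threshold for 40 probe sets. For the loci on the lists, the effect in batch 2 minus that in batch 1 was -6.47 for AT4G10270, -5.88 for AT3G29970, -5.54 for AT4G33560, -4.61 for both AT5G66985 and AT2G17850, -4.16 for AT1G33055, -3.87 for AT4G17670, -3.24 for AT4G27450, -2.32 for AT3G03270 and -1.88 for AT4G24110. For the glutathione transferase GSTU25 it was 1.69. The cause was not tested.

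The effects of CSN8 and csn5a-1 differed by the test of the difference for 19 of the 24 genes with a symbol, where 27.8% of all probe sets did.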

How the results depend on the processing

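None of the 34 named genes changed sign under any setting tried. Their choice required genotypes that did not overlap and 1 direction in all 4 pairs, so this was largely fixed by the choice. The number of probe sets past the threshold was 5287 with batch as a block and 3888 without batch, and the 3888 were all among the 5287. It stayed within 1.5 times of 5287 under the other normalizations, covariates, weights and priors. With the 4 arrays of batch 1 alone it was 1437 (621 higher, 816 lower), with the 4 arrays with DTT alone 2284 (1009 higher, 1275 lower) and with the 4 arrays without DTT alone 0, so 0 higher, 0 lower and 0 at least 2-fold. In that last fit of 4 arrays by limma, 4070 had an unadjusted p under 0.05 and the smallest adjusted p was 0.053. These fits hold fewer arrays by construction. Leaving out 1 array in turn gave 3534 to 4630 past the threshold, 1733 to 2328 higher and 1801 to 2302 lower, 0 to 4 for genotype by DTT, 0 to 148 for genotype by batch and 5239 to 6161 for the difference between mutants. Without both CSN8 arrays of batch 1, chosen after seeing the data, 4030 passed, and 3232 of the 5287 stood. Calls lost without batch in the model were those of CHI, GH3.3, EXPA7, EXPB3, AT5G48570, APS4, GR1, NDB2, UGT76B1 and BZIP60 (adjusted p 0.0537 to 0.155), and 10 plastid-encoded increases became 2. The cause was not tested. Probe sets at the low end of the array's range limit what can be called.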
